A study of Mus musculus with 6 samples.

Results

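The genes described here are 10 transcripts of mast cells and basophils, chosen by name from the gene symbols of the platform annotation, which holds 16593 different symbols. They are 5 secretory granule proteases (Cpa3, Mcpt4, Cma1, Tpsb2 and Tpsab1), 2 chains of the high-affinity IgE receptor (Fcer1a and Ms4a2), the histamine-forming enzyme gene Hdc, the transcription factor gene Gata2 and the growth factor receptor gene Kit. RNA came from lymph nodes of mice with knockout of Rag2 and of pfp, the perforin gene (Rag2/pfp KO, 3 arrays), and, for comparison, from nodes of wild-type mice (3 arrays). RAG2 is needed to assemble antigen receptor genes, so the knockout mice make no mature B or T cells, and perforin forms the pores of cytotoxic granules. The labels give no strain, age, sex or node site and do not say whether each array came from its own animal, so a p-value here reflects array-to-array spread that may be technical. The extraction protocol names Rag2/pfp mice for all 6 samples, and the groups follow the titles and genotype labels.

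Mast cells are tissue-resident cells that bind IgE through a receptor made of an alpha chain (Fcer1a), a beta chain (Ms4a2) and a shared gamma chain (Fcer1g), and that release histamine and proteases from their granules when the receptor is crosslinked. In lymph nodes they lie mainly in the capsule, the medulla and the surrounding connective tissue and fat, whereas basophils are rare, short-lived blood granulocytes that enter nodes in some immune responses. Both lineages depend on GATA2, and mast cells also need the KIT receptor and its ligand. Connective tissue mast cells of the mouse contain the chymases encoded by Mcpt4 and Cma1, the tryptase encoded by Tpsb2 and the carboxypeptidase encoded by Cpa3, while Mcpt1 and Mcpt2 are proteases of mucosal mast cells and Mcpt8 is a basophil protease.

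The arrays showed low lymphocyte RNA in the knockout and differences between nodes that the genotype labels do not give, in gland markers and, as described beside Hdc, in granulocyte markers. Over 8 tested B cell markers the mean normalized log2 intensity was 6.05 to 6.41 in knockout nodes and 11.18 to 11.99 in wild-type nodes, and over 10 T cell markers it was 6.74 to 7.76 in the knockout and 10.56 to 10.99 in wild type. The chemokine Ccl21a of node stroma and lymphatic endothelium read 15.12 ± 0.40 in knockout nodes and 15.32 ± 0.38 in wild-type nodes (SD, n = 3 each). The 17 tested markers of exocrine gland averaged 12.26, 14.06 and 13.44 on knockout arrays 1, 2 and 3, against 5.67, 12.51 and 5.57 on wild-type arrays 1, 2 and 3. Wild-type array 2 thus stood with the knockout arrays, where Dcpp2 and Wfdc12, secreted proteins of salivary gland, read near the top of the scale. Where they moved, results of the 10 genes are therefore given with that array left out, or with the gland marker mean as a covariate. The gland mean follows genotype apart from wild-type array 2, so fits with this covariate rest largely on that array. They cannot tell gland content from genotype.

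Of the 10 genes, 9 had a probe and Kit had none among the probes named by the annotation, so Kit is not analysed here. The 9 genes were read by 12 probes, with 3 for Cpa3, 2 for Cma1 and 1 for each other gene. A probe was called detected on an array when its detection p-value, which compares it with that array's negative control beads, was under 0.05, and a probe entered the test when at least 3 of the 6 arrays detected it. No array detected the Ms4a2 probe, whose detection p-values ran from 0.252 to 0.726. This left 8 genes and 11 probes tested. All 8 were detected on every array by the probe that stands for the gene, the one with the highest mean.

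The label of the genes was checked against other markers of both lineages. Mcpt1, Mcpt2, Mcpt8, Mcpt9, Cma2 and Gzmb were on the array and were not above background in any node. Cd200r3, a receptor of basophils and mast cells, was not above background either, while Mrgprb2, a receptor of connective tissue mast cells, was detected on 3 knockout and 2 wild-type arrays. Its relative Mrgprb1 and the listed genes Slc18a2, Tph1 and Rgs13 were not above background on any array. The basophil protease gene Prss34 was detected on 2 knockout and 2 wild-type arrays. Ctsg, a protease of neutrophils and mast cells, was detected on 2 knockout and 3 wild-type arrays. The proteases of connective tissue mast cells were thus detected beside some that other cells share, and those of mucosal mast cells were not above background.

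Promoter sequence is shown for the 2 chymases, the carboxypeptidase and the receptor alpha chain, because all 4 genes were highest on array 2 among the knockout arrays, while their changes between genotypes differed. Of the 10 genes, 8 had an entry in the RefSeq promoter table of GRCm38.p6, which covers 250 bases before and 50 after a gene's start. The windows were searched on both strands for GATAA, the core bound by GATA factors. GATAA occurred in 25.4% of the 32851 windows of the table, and it occurred in those of Cpa3, Mcpt4, Cma1, Fcer1a and Ms4a2 and in none of those of Hdc, Gata2 and Kit. Counted from the start of the gene, it began at -45 in Cpa3, -102 in Mcpt4, -194 in Cma1 and -92 in Fcer1a, and Ms4a2 held 3 copies. The match is a description of the letters and was not tied to binding. The 250 bases before the start are chr3:20242182-20242431, chr14:56062311-56062560, chr14:55944676-55944925 and chr1:173227230-173227479, all 4 on the minus strand and written 5′ to 3′ on the strand of the gene, with the GATAA core, as it reads on that strand, in capitals.
Cpa3: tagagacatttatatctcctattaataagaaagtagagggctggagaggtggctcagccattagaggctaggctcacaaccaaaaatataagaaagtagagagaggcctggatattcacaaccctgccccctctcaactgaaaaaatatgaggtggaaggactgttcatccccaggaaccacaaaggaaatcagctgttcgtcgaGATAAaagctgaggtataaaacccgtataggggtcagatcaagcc
Mcpt4: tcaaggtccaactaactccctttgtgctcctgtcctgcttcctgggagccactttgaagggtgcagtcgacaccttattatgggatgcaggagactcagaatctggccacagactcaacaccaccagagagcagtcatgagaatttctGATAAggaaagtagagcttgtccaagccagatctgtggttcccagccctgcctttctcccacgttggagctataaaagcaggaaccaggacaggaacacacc
Cma1: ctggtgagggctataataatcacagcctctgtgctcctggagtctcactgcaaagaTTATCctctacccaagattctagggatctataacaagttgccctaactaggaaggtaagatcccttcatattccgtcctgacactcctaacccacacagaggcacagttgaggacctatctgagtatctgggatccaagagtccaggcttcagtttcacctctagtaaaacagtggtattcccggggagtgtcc
Fcer1a: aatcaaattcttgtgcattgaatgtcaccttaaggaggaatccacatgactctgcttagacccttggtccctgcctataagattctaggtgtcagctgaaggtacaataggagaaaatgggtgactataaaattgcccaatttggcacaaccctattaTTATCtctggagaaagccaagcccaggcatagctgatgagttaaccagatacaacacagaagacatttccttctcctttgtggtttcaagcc

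The same windows were searched on both strands for E-boxes of the kind bound by MITF, spelled CACATG or, in the symmetric form of that motif, CACGTG. An E-box occurred in the window of Fcer1a alone among these genes, against 20.4% of all windows, and it did not overlap the GATAA core there.

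Of the 8 genes tested, Mcpt4 and Gata2 rose in the knockout and 0 fell, at a limma adjusted p under 0.05 over all 14378 probes tested. In the same comparison 28.6% of all probes were called and 10.1% were called higher, so 2 of 8 is a count from few genes. Knockout and wild-type arrays did not overlap, with the knockout higher, for 4 of the 8 genes (Mcpt4, Cma1, Tpsb2 and Gata2), where 21.0% of all probes did so. For 0 of the 8 they lay apart with the knockout lower, against 27.3% of all probes, and 48.2% of probes lay apart in either direction. The median log2 fold change, knockout minus wild type, was 0.91 over the 8 genes and 0.0016 over all probes tested. The RNA came from whole nodes, where more cells of a type and more RNA per cell cannot be told apart.

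**Figure D1:**
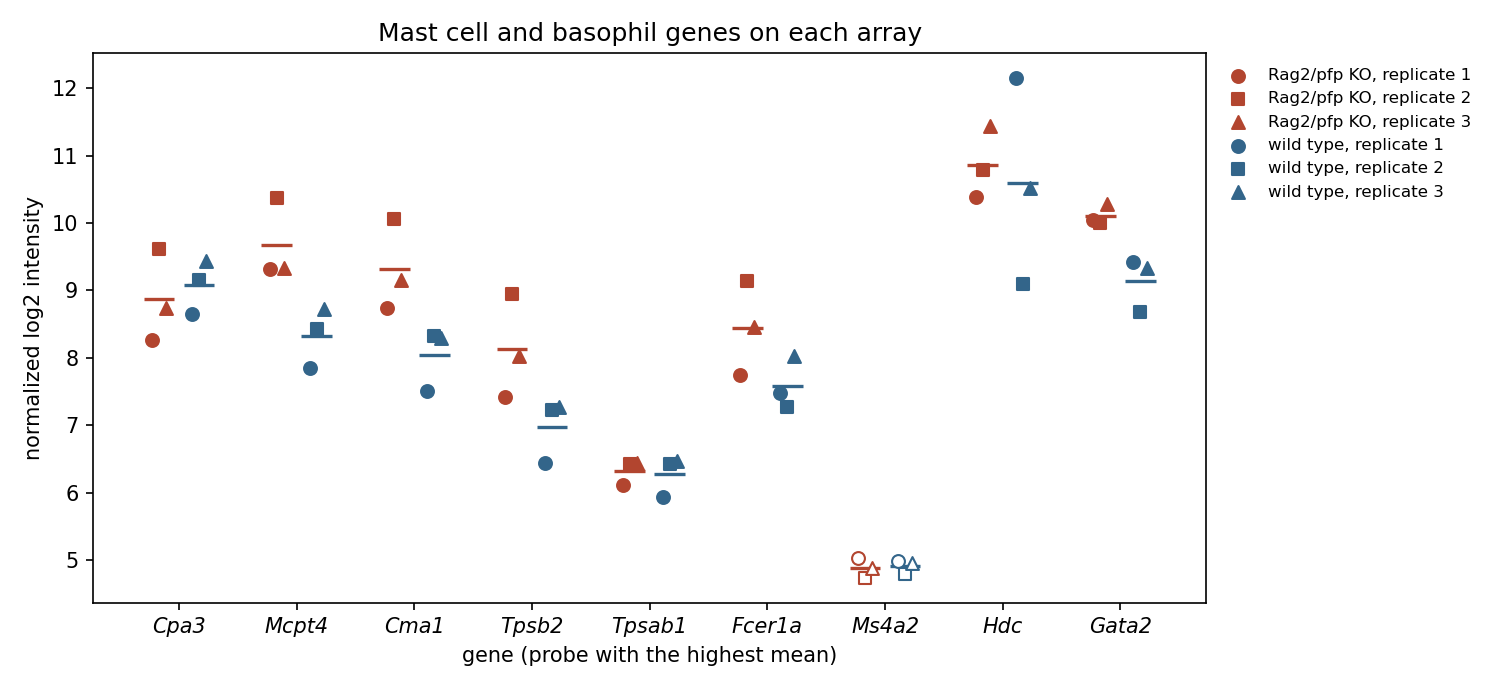
Normalized log2 intensity of the 9 genes with a probe (y axis) on each array, for Rag2/pfp KO nodes (left in each pair) and wild-type nodes. Symbols are arrays, open symbols are not above background, and bars are means. All 3 knockout arrays lie above all 3 wild-type arrays for Mcpt4, Cma1, Tpsb2 and Gata2, and Ms4a2 is below background throughout.

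Mcpt4 encodes a chymase of connective tissue mast cells. Its normalized log2 intensity was 9.32, 10.37 and 9.33 on knockout arrays 1, 2 and 3, against 7.84, 8.42 and 8.73 on the wild-type arrays. The lowest knockout array was above the highest wild-type array, and knockout array 2 was the highest of all. The deposited signals before normalization were 699, 1146 and 687 in the knockout and 381, 496 and 603 in wild type, where the genotypes did not overlap either. The gene rose 2.54-fold (log2 fold change 1.34, SE 0.37, limma adjusted p = 0.039). The call was lost with any array left out other than wild-type array 2 (adjusted p from 0.062 to 0.107), with no filter on dim probes (0.061) and with the gland covariate, where the log2 fold change was 1.12 (adjusted p = 0.192).

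Cma1 encodes a second mast cell chymase, and lies with Mcpt4 on chromosome 14. The brighter of its 2 probes read 8.74, 10.06 and 9.15 on the knockout arrays, against 7.51, 8.32 and 8.30 on the wild-type arrays. As for Mcpt4, the genotypes did not overlap and array 2 was the highest in the knockout. The log2 fold change was 1.27 (SE 0.40, 95% interval 0.31 to 2.23, limma adjusted p = 0.056), and the other probe gave 1.25 (SE 0.42, adjusted p = 0.067), so the 2 probes gave similar changes that both missed the threshold. With wild-type array 2 left out both passed, with adjusted p of 0.040 for each. That fit called 6298 of all 14378 probes, against 4119 with all arrays, which eases the adjustment. The unadjusted limma p was 0.016 for each probe there, against 0.017 and 0.022 with all arrays. With the gland covariate the changes were 0.79 (adjusted p = 0.338) and 0.67 (adjusted p = 0.418).

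Tpsb2 encodes the tryptase of mouse mast cells also known as MCP-6. It read 7.42, 8.94 and 8.02 on the knockout arrays, against 6.44, 7.23 and 7.27 on the wild-type arrays. The groups did not overlap after normalization, and the ranking of the 3 knockout arrays was that of Cma1. Before normalization the signals were 238, 469 and 327 in the knockout and 230, 285 and 294 in wild type. There knockout array 1 lay below wild-type arrays 2 and 3. The log2 fold change of Tpsb2, 1.15 (SE 0.43, 95% interval 0.10 to 2.19), did not pass (limma adjusted p = 0.091). It was 0.74 without knockout array 2 and 0.66 with the gland covariate. Tpsab1, the second tryptase gene, was dim, with 6.11, 6.43 and 6.44 on the knockout arrays and 5.94, 6.43 and 6.48 on the wild-type arrays. Its values overlapped throughout, and its log2 fold change was 0.04 (95% interval -0.45 to 0.54, limma adjusted p = 0.883). Whether the probes separate these chymases and tryptases from their close relatives was not assessed.

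Cpa3 encodes carboxypeptidase A, which mast cells store in their granules beside the chymases and tryptase and which basophils also transcribe. Its brightest probe read 8.26, 9.61 and 8.74 on the knockout arrays, against 8.64, 9.15 and 9.44 on the wild-type arrays. Knockout array 2 was the highest and knockout array 1 the lowest of the 6, so the genotypes overlapped fully. Before normalization the signals were 374, 703 and 484 in the knockout and 563, 735 and 908 in wild type, on arrays whose median signal was 134 to 144 in the knockout and 191 to 207 in wild type. The log2 fold changes of the 3 probes were -0.21 (95% interval -1.14 to 0.73), -0.58 (95% interval -1.59 to 0.42) and -0.49 (95% interval -1.07 to 0.10), with limma adjusted p of 0.700, 0.309 and 0.167. Thus none passed, although all 3 pointed below wild type, opposite to Mcpt4, Cma1 and Tpsb2. The dimmest of these probes was above background on 1 knockout array and on 3 wild-type arrays. Without knockout array 1 the change of the brightest probe was 0.10, and with the gland covariate those of the 2 brighter probes were -0.47 and -1.03, which did not pass either.

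**Figure D2:**
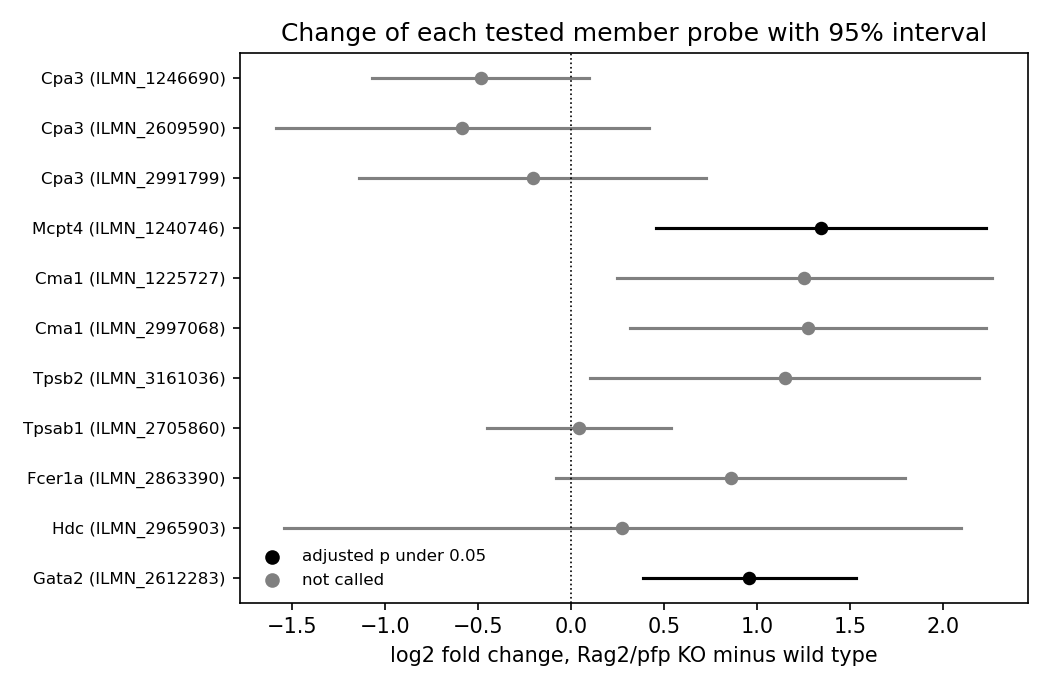
Log2 fold change, Rag2/pfp KO minus wild type (x axis), with its 95% interval for the 11 tested probes. Black marks the probes with a limma adjusted p under 0.05, Mcpt4 at 1.34 and Gata2 at 0.96, and the 3 Cpa3 probes are the only ones whose point lies below 0.

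Mcpt4, Cma1 and Tpsb2 followed one another from array to array, while the uncalled change of Cpa3 pointed the other way. The change of the other tested genes was therefore also read relative to Cpa3 within each array, a comparison chosen after the values were seen. The log2 ratio of each gene to Cpa3 was centred on its mean over the 6 arrays, so that it shows change and not level. For Cma1 it was 0.77, 0.74 and 0.71 on the knockout arrays, against -0.84, -0.54 and -0.84 on the wild-type arrays. The genotypes did not overlap, and the SD was 0.034 over the 3 knockout arrays and 0.18 over the 3 wild-type arrays. The corresponding SDs were 0.24 and 0.047 for Mcpt4 and 0.088 and 0.15 for Tpsb2. For Mcpt4 the centred ratio was 1.04, 0.73 and 0.56 in the knockout, against -0.83, -0.76 and -0.74 in wild type. For Tpsb2 it was 0.58, 0.75 and 0.70 in the knockout, against -0.79, -0.50 and -0.74 in wild type. Relative to Cpa3, Cma1 was thus 2.79-fold, Mcpt4 2.93-fold and Tpsb2 2.56-fold higher in the knockout. These ratios restate the opposite signs of the single changes that prompted the comparison and are a description.

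The exact two-sided permutation test over arrays gave p = 0.1 for each of these 3 genes and for Fcer1a (2.09-fold), which is the smallest p that 3 arrays against 3 allow, and 0.175 adjusted over the 7 genes compared with Cpa3. The genotypes did not overlap, with the knockout higher, for 4 of these 7 genes, and 8.46% of the other 14377 probes did so in the same comparison with Cpa3. Cpa3 became the reference after its change was seen, all 7 ratios share it, and Mcpt4, Cma1 and Tpsb2 already lay apart without it. These p-values and this count are therefore no separate support for a difference. For Gata2, Tpsab1 and Hdc the ratio to Cpa3 overlapped between genotypes. With the other bright Cpa3 probe in its place the log2 differences were larger, 1.86 for Cma1, 1.93 for Mcpt4 and 1.73 for Tpsb2. They ranged from 0.92 for Tpsb2 without background correction to 1.66 for Mcpt4 without knockout array 3 over the other alternatives tried.

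**Figure D3:**
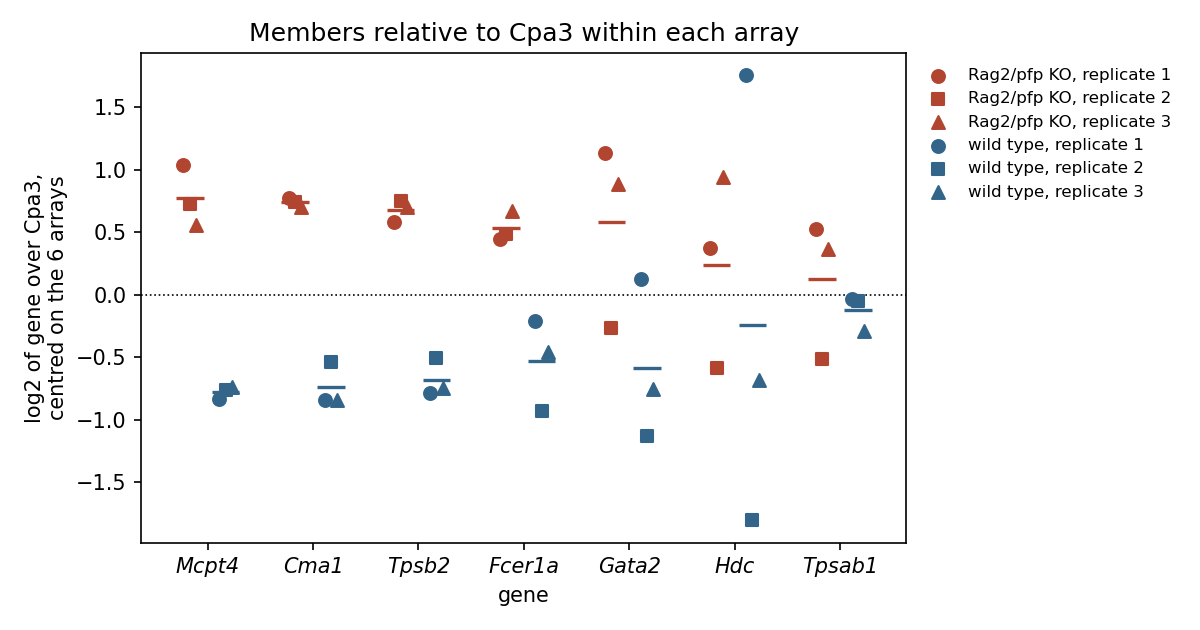
Log2 ratio of each gene to Cpa3 within an array, centred on the mean of the 6 arrays (y axis), for Rag2/pfp KO (left in each pair) and wild-type arrays, with bars at the means. For Mcpt4, Cma1 and Tpsb2 the 3 knockout arrays lie between 0.56 and 1.04 and the 3 wild-type arrays between -0.84 and -0.50.

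The likeness of patterns was measured as the mean absolute difference, over the 6 arrays, between log2 values each centred on its own mean. Cma1 and Tpsb2 were the closest pair of the 8 genes, at 0.066, followed by Mcpt4 and Cma1 at 0.13 and Mcpt4 and Tpsb2 at 0.15. Cpa3 lay farther from these 3 genes, at 0.68 from Tpsb2, 0.74 from Cma1 and 0.78 from Mcpt4. Outside the 10 genes, Ift20 (0.067), Sqor (0.14) and Dusp14 (0.15) came closest to Cpa3, where the median over genes was 0.54. The arrays share their depth and normalization, so such distances describe these 6 arrays only.

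Fcer1a encodes the IgE-binding alpha chain of the receptor. It read 7.74, 9.14 and 8.46 on the knockout arrays, against 7.48, 7.27 and 8.02 on the wild-type arrays. Wild-type array 3 lay above knockout array 1, so the groups overlapped by that pair. The log2 fold change was 0.86 (SE 0.39, 95% interval -0.08 to 1.80, limma adjusted p = 0.138). It was 0.51 without knockout array 2, 1.21 without knockout array 1 (adjusted p = 0.062) and 1.01 with the gland covariate. The beta chain gene Ms4a2 had signals of 99.7, 82.5 and 94.5 in the knockout and 156, 127 and 142 in wild type, all within the background of their arrays. The shared gamma chain gene Fcer1g, which macrophages and natural killer cells also use, was bright, at 14.32 ± 0.35 in the knockout and 13.53 ± 0.81 in wild type (SD, n = 3 each, limma adjusted p = 0.188).

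Hdc encodes histidine decarboxylase, the only enzyme that forms histamine, and in mice it is also transcribed by maturing neutrophils and other myeloid cells. It read 10.38, 10.78 and 11.43 on the knockout arrays, against 12.15, 9.10 and 10.51 on the wild-type arrays. Wild-type arrays 1 and 2 were the highest and the lowest of the 6, and all knockout arrays lay between them. The log2 fold change was 0.28 (SE 0.75, 95% interval -1.54 to 2.09, limma adjusted p = 0.794), and it was -0.47 without wild-type array 2 and 1.82 with the gland covariate (adjusted p = 0.152).

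The wild-type spread of Hdc ran beside that of granulocyte genes. Over the 10 tested eosinophil and neutrophil markers the mean log2 intensity was 8.77, 8.84 and 10.51 on the knockout arrays and 13.37, 9.03 and 11.69 on the wild-type arrays. This mean ranks the arrays of each genotype as Hdc does, but knockout arrays 1 and 2 lay close and single markers differed there. On knockout arrays 1, 2 and 3 S100a8 read 10.70, 11.48 and 12.56, in the order of Hdc. Mpo (7.50, 7.16 and 10.35) and Ltf (11.29, 11.08 and 12.56) were lowest on array 2. The brightest of these were S100a8, at 11.58 ± 0.93 in the knockout and 13.78 ± 2.04 in wild type, and Ltf, at 11.65 ± 0.80 in the knockout and 13.24 ± 1.95 in wild type (SD, n = 3 each). Of the 10 markers, 1 fell and 0 rose. The basophil protease gene Prss34, detected on 2 arrays of each genotype, read 6.05, 5.17 and 6.65 in the knockout and 8.34, 5.22 and 6.91 in wild type. Like Hdc it was highest on knockout array 3 and wild-type array 1, but among the knockout arrays it was lowest on array 2. The part of neutrophils, eosinophils and basophils in the Hdc values was not tested. Cpa3, Mcpt4, Cma1 and Tpsb2 ranked the arrays differently, with array 2 the highest in the knockout and array 1 the lowest in wild type.

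**Figure D4:**
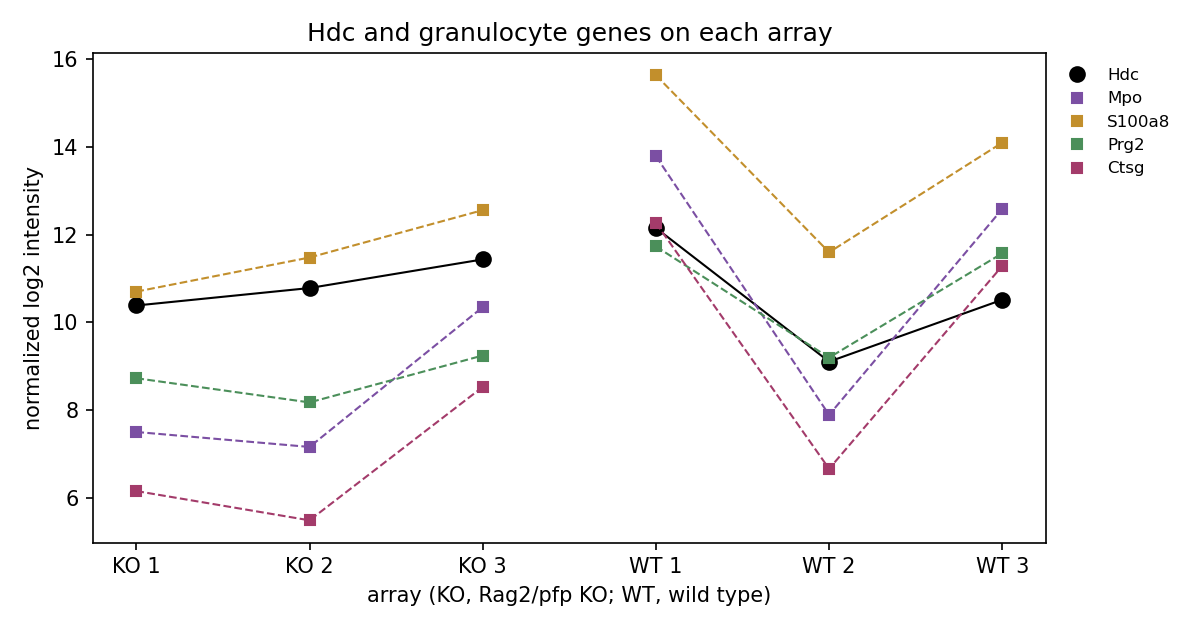
Normalized log2 intensity (y axis) of Hdc and of Mpo, S100a8, Prg2 and Ctsg, granule and alarmin genes of granulocytes, on each array (x axis), with lines joining arrays of 1 genotype only to guide the eye. Within each genotype Hdc was highest where Mpo and S100a8 were highest, knockout array 3 and wild-type array 1. Among the knockout arrays Mpo, Prg2 and Ctsg were lowest on array 2, and Hdc and S100a8 on array 1.

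Gata2 encodes a zinc finger transcription factor of mast cells and basophils, of blood progenitors and of endothelium. It read 10.04, 9.998 and 10.28 on the knockout arrays, against 9.42, 8.68 and 9.34 on the wild-type arrays. The genotypes did not overlap, and the knockout arrays lay within 0.28 of each other, without the high array 2 of the proteases. The gene rose 1.94-fold (log2 fold change 0.96, SE 0.24, limma adjusted p = 0.029). The call was kept with the gland covariate, with a higher log2 fold change of 1.47 (adjusted p = 0.013). It was also kept without wild-type array 2, the lowest of the 6, where the log2 fold change was lower, at 0.73 (adjusted p = 0.017). Leaving out knockout array 1, 2 or 3, or wild-type array 3, ended the call (adjusted p from 0.061 to 0.101).

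Genes with a pattern nearest to that of Gata2 over the 6 arrays were Trpv4 (0.044), Kank3 (0.057) and Arrdc2 (0.071), where the median over genes was 0.56. Over 11 blood endothelial markers the mean log2 intensity was 10.85 to 11.29 in the knockout and 9.96 to 10.66 in wild type, which did not overlap, and 2 of them rose and 0 fell. The brightest were Plvap (13.55 ± 0.36 in the knockout and 12.93 ± 0.52 in wild type) and Egfl7 (13.54 ± 0.42 in the knockout and 13.06 ± 0.57 in wild type; SD, n = 3 each). Over 7 lymphatic endothelial markers, led by Ccl21a and Lyve1, 1 rose and 0 fell, with means of 10.53 to 10.92 in the knockout and 9.88 to 11.04 in wild type. Over 7 markers of blood progenitors, platelets and red cells, led by Hba-a1 and Itga2b, 2 rose and 1 fell. Their means, 8.99 to 9.14 in the knockout and 8.25 to 8.82 in wild type, did not overlap, as for blood endothelium. The means of adipocyte and innate lymphoid markers, given below, did not overlap between genotypes either. The part of these cells in the Gata2 values was not tested.

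The levels of other tissues that carry mast cells moved as follows. The gland markers ranked the knockout arrays as Cma1 and Tpsb2 did, highest on array 2 and lowest on array 1, but not the wild-type arrays, where array 2 was about as high as the knockout in gland markers. In the proteases wild-type array 2 lay below all knockout arrays for Mcpt4, Cma1 and Tpsb2, and among them for Cpa3 and Tpsab1. Over 12 adipocyte markers the mean was 10.57 to 11.23 in the knockout and 10.08 to 10.33 in wild type, and 5 rose and 1 fell, with Lpl and Pnpla2 the brightest. Over 13 fibroblast and matrix genes, led by Dcn and Lum, the mean was 9.70 to 10.28 in the knockout and 8.78 to 9.73 in wild type, and 4 rose and 0 fell. Fat and matrix means were highest on knockout array 1, where the proteases were lowest among the knockout arrays. Innate lymphoid markers had 2 rises and 1 fall among 6, with means of 9.73 to 10.41 in the knockout and 9.38 to 9.49 in wild type. The rises were Il17rb (log2 fold change 3.07) and Klrg1 (1.92), and the fall was Id2 (-0.73). The brightest, Thy1 (-0.76) and Il7r (-0.62), pointed below wild type and were not called. Apart from the gland covariate, which cannot tell gland content from genotype, the part of these tissues in the changes was not tested.

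**Figure D5:**
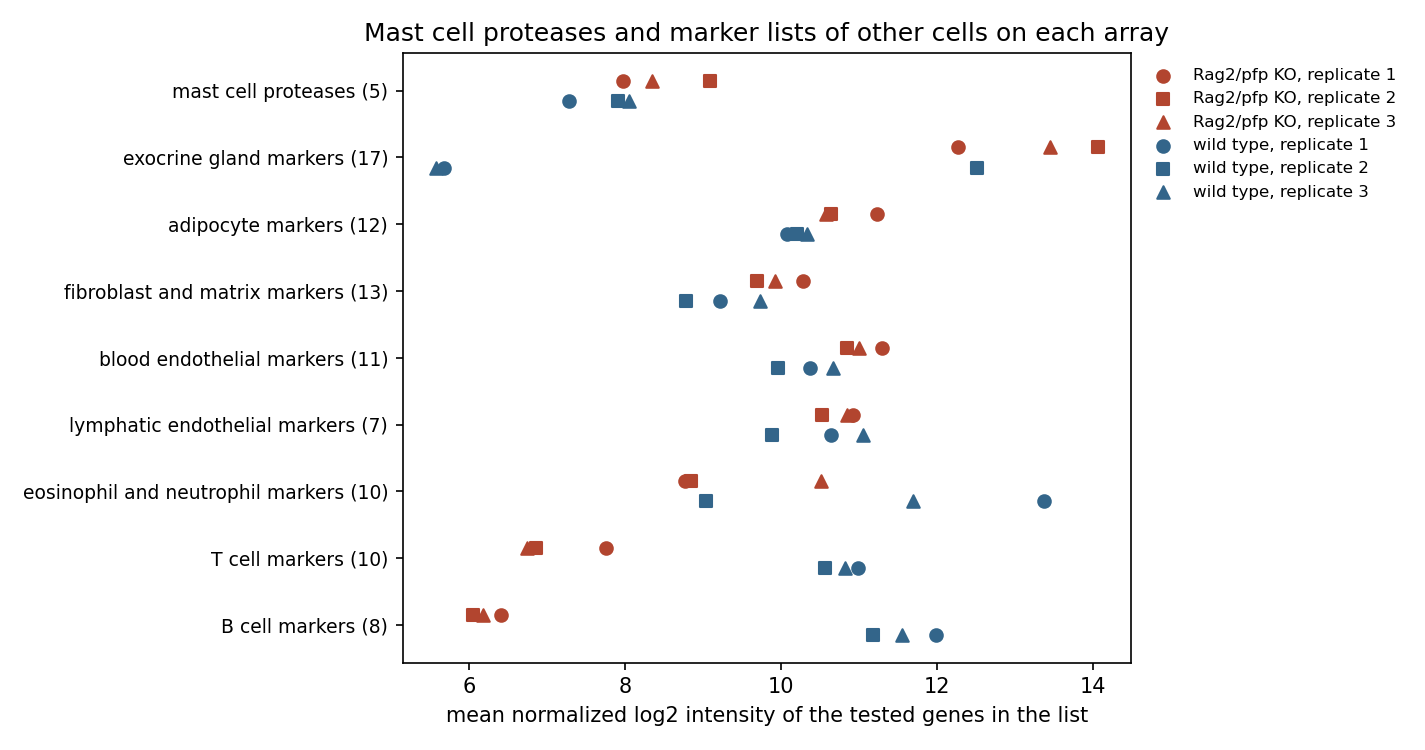
Mean normalized log2 intensity (x axis) on each array for the 5 mast cell proteases and for marker lists of other cells, with the number of tested genes in brackets, Rag2/pfp KO arrays above wild-type arrays in each row. Gland markers are near 5.6 on wild-type arrays 1 and 3 and above 12 on the other 4 arrays, while B and T cell markers separate the genotypes.

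Other genes of the mast cell and basophil programme were called about as often as all probes. Of 76 such genes listed by role, 67 were on the array and 40 were tested, of which 2 rose, 10 fell and 28 were not called, where 10.1% of all probes were called higher and 18.5% lower. Many of these genes are shared with B and T cells or myeloid cells, whose markers moved as given above. The part of these cells in the counts was not tested. With the gland covariate the same list had 10 genes higher and 2 lower, and without single arrays it had 2 or 3 higher and between 3 and 16 lower. The calls of single genes from these lists are given below for all arrays without the covariate, and most of the falls depend on that choice. Neither of the 2 tested proteases outside the 10 genes was called, and the larger difference was that of Ctsg, cathepsin G of neutrophils and mast cells, at a log2 fold change of -3.35 (limma adjusted p = 0.147).

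Among 10 tested genes of IgE receptor signalling, 3 fell and 0 rose. Lat, the adaptor that assembles the signalling complex in T cells and mast cells, fell to 7.09 ± 0.44 in the knockout, against 10.91 ± 0.28 in wild type (SD, n = 3 each, limma adjusted p = 0.0014). Btk, a kinase of B cells and mast cells, fell to 10.49 ± 0.42 in the knockout, against 12.12 ± 0.47 in wild type (adjusted p = 0.014), and the kinase Fyn fell to 7.29 ± 0.33 in the knockout, against 8.66 ± 0.48 in wild type (adjusted p = 0.020). Of 8 tested surface markers, the activation antigen Cd69 (log2 fold change -2.36, limma adjusted p = 0.0034) and the cytokine receptor chain Csf2rb2 (-1.36, adjusted p = 0.032) fell. Of 4 histamine and granule genes, Srgn, the proteoglycan core that packs granule proteases and histamine, fell by 1.33 (SE 0.35, limma adjusted p = 0.034).

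Of 4 lipid mediator genes, Ltc4s, the leukotriene C4 synthase, rose 2.89-fold (SE 0.25 on the log2 scale, limma adjusted p = 0.0086), while the prostaglandin D synthase Hpgds fell by 1.59 (SE 0.47, adjusted p = 0.049). Of 12 lineage factors and cytokines, 1 rose and 3 fell. The myeloid factor Cebpa rose 2.69-fold (adjusted p = 0.0075), Runx1 fell to 7.14 ± 0.51 in the knockout, against 8.73 ± 0.26 in wild type (adjusted p = 0.012), and the GATA partner Lmo2 fell by 0.67 (adjusted p = 0.029). The interleukin 9 receptor gene Il9r, detected on the 3 wild-type arrays and on 0 knockout arrays, was lower in the knockout by a factor of at least 1.17 (limma adjusted p = 0.020). Kitl, the ligand of KIT, stood at 7.39 ± 0.40 in the knockout and 7.88 ± 0.25 in wild type (SD, n = 3 each, adjusted p = 0.176), and Mitf and Gata1, partners in mast cell gene control, were not above background on any array.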

How the data were processed

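Signal intensities and detection p-values of 25697 probes on 6 Illumina Mouse Ref-8 v2 arrays come from the deposited non-normalized table; the submitters' processing notes name GenomeStudio 2011.1. The log2 values deposited by the authors (column medians 7.38) served as an alternative; no source used here states how they were normalized, and their fold changes equalled those of quantile-normalized log2 signal without background correction. Intensities were corrected by normexp with the background from the detection p-values, given an offset of 16, then quantile-normalized on the log2 scale (neqc, limma 3.58.1, R 4.3.3), which shrinks the change of dim probes. Between 51.3% and 56.3% of probes were detected per array, and the number of arrays limits the precision. The 14378 probes with detection p under 0.05 on at least 3 arrays were fitted (lmFit, eBayes, two-sided, knockout minus wild type) and adjusted by Benjamini-Hochberg over all of them, with a threshold of 0.05. The fit was tested on simulated data.

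Names come from the platform annotation. A RefSeq table of GRCm38.p6 changed 0 symbols. A gene is represented by its brightest tested probe. A fold against a group with no detected array is a bound at the lowest detected signal. The members, lists and tests were chosen with earlier results of these data known. Named are all members, up to 3 called genes per direction of each pathway list, the 2 brightest genes of each other list where tissue is described, and the 3 genes nearest to Cpa3 and to Gata2. Other named genes (such as Ctsg, Fcer1g, Kitl, Prss34, Mpo and Prg2) were chosen after their values were seen. Alternatives were the background correction, offset, scaling, filter, variance model, replicate block, arrays left out and a gland covariate. The planned comparison of protease proteins was not made, since no protein sequences were used here. Python 3.11.15 and scipy 1.17.1 gave the exact permutation tests.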

Additional observations from a re-analysis of the deposited data

How the results depend on the processing

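The number of members called, 2 with all arrays, was 1 with no filter on dim probes, 1 with the gland covariate, 4 with the replicate block and 0 to 3 with 1 array left out, where 0 were called without knockout array 1, 2 or 3 or wild-type array 3, 1 without wild-type array 1 and 3 without wild-type array 2. It stayed 2 under the other normalizations, offset, filter and variance model, and with each probe counted alone. The number of pathway genes called, 12 with all arrays, was 5 to 19 with 1 array left out, and the number of all probes called, 4119 with all arrays, was 1805 to 6298. Without wild-type array 2 it was 6298, and without knockout array 2 or 3 or wild-type array 1 or 3 it was 1991, 1805, 2310 and 2101, and 2393 without knockout array 1. The replicate block added Cma1 and Tpsb2 to the calls (adjusted p = 0.021 and 0.029). The correlations of deviations were 0.49 and 0.32 for same-numbered arrays 1 and 2 but -0.31 for arrays 3, and the labels tie no pair, so the numbers were not taken to pair the arrays. Sign changes were seen only in uncalled genes: with 1 array left out the log2 fold change of Cpa3 ranged from -0.58 to 0.10 (positive without knockout array 1), that of Hdc from -0.47 to 1.06 (-0.0074 without knockout array 3 and -0.47 without wild-type array 2) and that of Tpsab1 from -0.13 to 0.15 (-0.0063 and -0.014 without knockout arrays 2 and 3 and -0.13 without wild-type array 1), and with the gland covariate Tpsab1 was at -0.16. The causes were not tested beyond the smaller number of arrays. The log2 fold change of Mcpt4 lay between 1.00 and 1.54 and that of Gata2 between 0.73 and 1.47 over all alternatives. A chip block could not be run, since the sources used here give no chip. Tpsab1 and the dimmest Cpa3 probe lay close to background, where the offset limits what change can be seen.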
